A study of Mus musculus with 15 samples.

Results

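The expression of 32 genes of fatty acid oxidation and ketone body synthesis was followed in mouse liver, from the nuclear receptor PPARα and its partner CREB3L3 to the enzymes of mitochondria and peroxisomes. They were taken by gene symbol from a list of genes of these pathways, and all 32 were among the 20325 genes listed for each liver and among the 12377 genes expressed enough to be tested. RNA was sequenced from the livers of 15 male C57BL/6J mice, an inbred laboratory strain. The mice were 19 weeks old and formed 5 groups of 3. Those raised germ-free on chow (GF chow) and on a high-fat, high-sucrose diet (GF HF/HS) had no microbiota. Conventionally raised mice on chow (ConvR chow) and on HF/HS (ConvR HF/HS) had acquired one from birth. Conventionalized mice (ConvD chow) were germ-free until a single gavage of cecal contents from chow-fed ConvR donors at 15 weeks of age, and were studied 4 weeks later, and each mouse was a separate biological replicate. No ConvD mice on HF/HS were analysed here. The diets began after 3 weeks of age. Chow took 23.7% of its energy from fat, 53.2% from carbohydrate and 23.1% from protein, and HF/HS took 44.6%, 40.6% and 14.8%. Mice shared cages within a colonization status and diet, GF and ConvR mice lived in different isolators and ConvD mice in sealed cages, so cage or isolator and group cannot be told apart.

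Fatty acids enter oxidation as acyl-CoA. In mitochondria the carnitine shuttle carries long acyl chains across the inner membrane, a repeating cycle of dehydrogenases, a hydratase and a thiolase shortens them, and their electrons reach the respiratory chain through the electron transfer flavoprotein. Peroxisomes shorten very long, branched and dicarboxylic chains with their own set of enzymes. In the fasted liver the acetyl-CoA formed becomes ketone bodies, and PPARα, a receptor activated by fatty acids, raises the transcription of most of these genes.

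The members spanned a wide range of levels. On the TPM scale, which divides by gene length so that genes can be compared, Acaa1b, a peroxisomal thiolase, was the most abundant, with a mean of 1188 TPM over the 15 livers and a range of 369 to 2191 TPM. The mitochondrial thiolase Acaa2 followed at 900.2 TPM, then the electron carrier Etfb at 514 TPM and the acyl-CoA synthetase Acsl1 at 445 TPM. The least abundant were Ucp2, an inner membrane carrier, at 9.78 TPM, and Pdk4, the kinase that shuts off pyruvate dehydrogenase, at 6.63 TPM. Pdk4 ran from 1.44 to 14.8 TPM. All other levels below are CPM, counts scaled to a common library total, listed for mice 1, 2 and 3 of a group in that order.

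**Figure D1:**
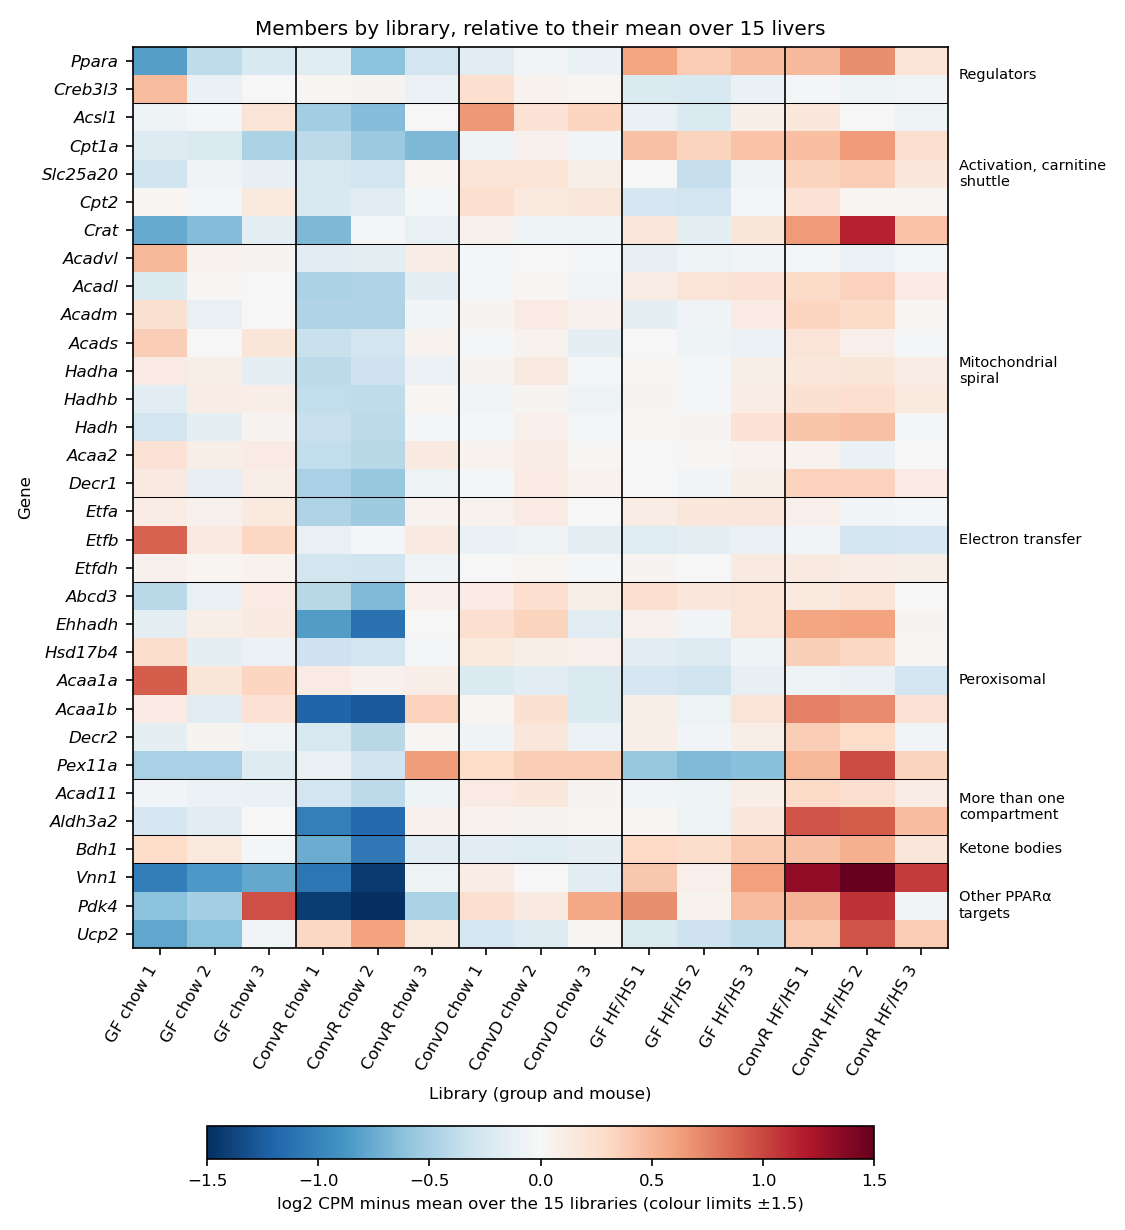
Level of each of the 32 members in each of the 15 livers, as log2 CPM minus the gene's mean over the 15 libraries (colour, limits ±1.5), with genes in rows by role and livers in columns by group. Libraries 1 and 2 of the ConvR chow group are blue for most members, and the ConvR HF/HS libraries are red for most.

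Libraries held 14737578 to 21794811 estimated reads, and all 10 hepatocyte markers examined were present in them. Plin1 and Ucp1, markers of adipocytes, were at 0 in all 15, and 4 of 4 skeletal muscle markers stayed under 1 CPM. Of the 3 ConvR chow livers, mice 1 and 2 were close to each other and apart from mouse 3. A sum of 22 acute phase genes, secreted by hepatocytes during inflammation, stood at 98480.2 and 127807 CPM in ConvR chow 1 and 2, against 24315 CPM in ConvR chow 3 and 18813 to 27982 CPM in the other 12 libraries. Summed markers of neutrophils were at 19.6 and 32.8 CPM in these mice against 3.74 CPM in ConvR chow 3, those of monocytes at 18.2 and 20.0 against 7.78 CPM, and those of hepatocytes at 73359 and 65298 against 102069 CPM. In bulk RNA, fewer cells of a type and less RNA per cell cannot be told apart.

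The same ConvR chow mice held the lowest levels of most members. ConvR chow 1 and 2 were the 2 lowest of the 15 libraries for 22 of 32 members, which was so for 764 of the 12377 genes tested, or 6.17%. ConvR chow 3 was above the mean of mice 1 and 2 for 29 of 32 members, with a median ratio of 1.27, against 1.00 over all genes tested. The median ratio was 1.25 for the 15 mitochondrial members and 1.53 for the 7 peroxisomal ones. Acaa1b had the widest gap, at 488, 466 and 1414 CPM. Ehhadh, the bifunctional enzyme of peroxisomes, stood at 205, 168 and 363 CPM, and Aldh3a2, a fatty aldehyde dehydrogenase, at 224, 203 and 478 CPM. Acaa1b and Aldh3a2 thus had ConvR chow 3 at the level of other groups and mice 1 and 2 below every other liver. The 3 members that were not higher in ConvR chow 3 were Cpt1a at 279, 248 and 229.7 CPM, Creb3l3 at 301, 303 and 279 CPM and Ucp2 at 30.0, 36.6 and 26.8 CPM. How far inflammation or its cells took part in the members' levels was not tested, and counts and medians of the members that use the ConvR chow group are also given without mice 1 and 2, where the 1 ConvR chow liver left is assumed to vary like the other groups.

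**Figure D2:**
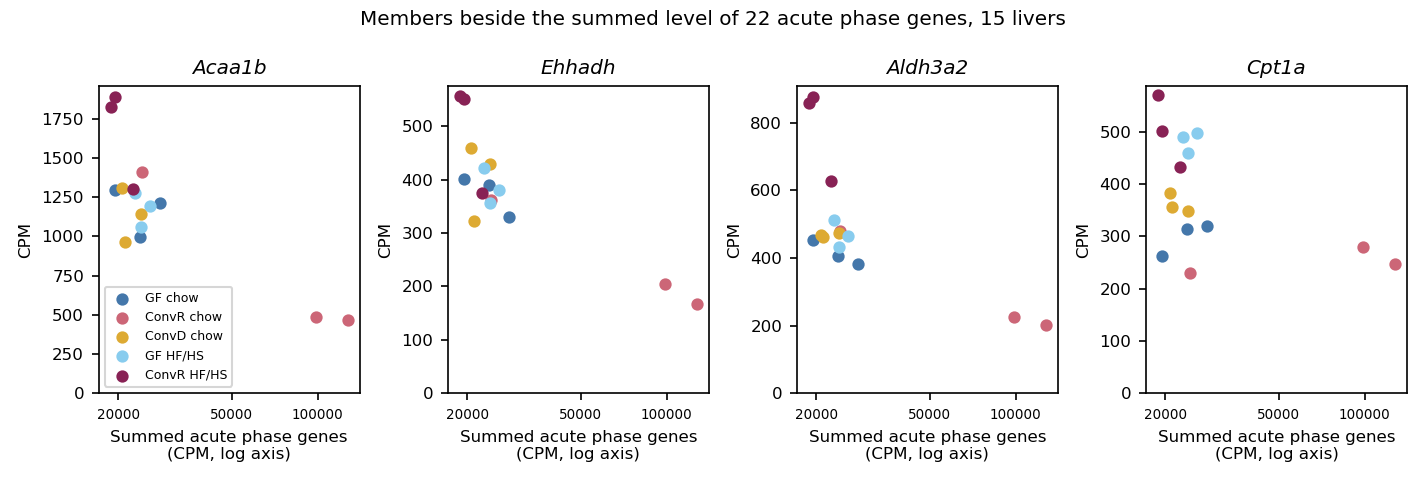
CPM of Acaa1b, Ehhadh, Aldh3a2 and Cpt1a (vertical axes, linear) beside the summed CPM of 22 acute phase genes (horizontal axis, log scale) in each of the 15 livers, coloured by group. ConvR chow 1 and 2, at the right, are the lowest 2 livers for the first 3 genes and lie among the other chow livers for Cpt1a.

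HF/HS was compared with chow in ConvR mice to find members that differed with diet when a microbiota was present. On HF/HS 20 of 32 members were higher and 0 were lower, at an adjusted p below 0.05 (edgeR's quasi-likelihood test, Benjamini-Hochberg over all genes tested, here named a call). Of all tested genes 14.6% were called in this comparison, and 6.75% were called higher and 7.8% lower. The higher members came from nearly every step: Ppara itself, 3 of 5 genes of activation and the carnitine shuttle, 6 of 9 of the mitochondrial cycle, 1 of 3 of electron transfer, 4 of 7 peroxisomal genes, Acad11 and Aldh3a2, the ketone body gene Bdh1, and 2 of 3 other PPARα targets. The median log2 fold change was 0.44 over the members and -0.02 over all tested genes.

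Ppara stood at 356, 411 and 294 CPM on HF/HS and 223, 166 and 207 CPM on chow (log2 fold change 0.83 ± 0.16, standard error after the sign, adjusted p = 0.00353). The lowest HF/HS liver was above the highest chow liver. Creb3l3, a liver transcription factor that acts with PPARα, stood at 290.5, 281 and 287 CPM against 301, 303 and 279 CPM, and its ranges overlapped (log2 fold change -0.04 ± 0.13, adjusted p = 0.868). Cpt1a, the outer membrane transferase that sets the pace of entry into mitochondria, stood at 502, 571 and 433 CPM against 279, 248 and 229.7 CPM (log2 fold change 0.99 ± 0.12, adjusted p = 0.000243). It had the smallest p of the 32 members. Its log2 fold change was 1.13 (adjusted p = 0.00745) without ConvR chow 1 and 2.

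Other steps of entry also differed. Crat, the acetyltransferase that forms acetylcarnitine, stood at 81.8, 117 and 70.6 CPM against 33.0, 51.5 and 48.9 CPM (log2 fold change 1.01 ± 0.21, adjusted p = 0.00547), with no overlap. Slc25a20, the carrier that exchanges acylcarnitine for carnitine, stood at 116, 118 and 102 CPM against 77.4, 75.5 and 93.6 CPM (log2 fold change 0.44 ± 0.11, adjusted p = 0.0168), with no overlap. Cpt2, the inner membrane transferase (log2 fold change 0.23, adjusted p = 0.122), and Acsl1 (0.39, adjusted p = 0.145) were not called.

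Within the mitochondrial cycle, Acadl, the long-chain acyl-CoA dehydrogenase, stood at 205, 213 and 183 CPM against 121, 123 and 153 CPM (log2 fold change 0.60 ± 0.10, adjusted p = 0.00207). Decr1, the dienoyl-CoA reductase needed for polyunsaturated chains, stood at 226, 227 and 194 CPM against 127, 119.8 and 169 CPM (log2 fold change 0.63 ± 0.12, adjusted p = 0.00426). Acadm, the medium-chain dehydrogenase, stood at 406, 395 and 331 CPM against 238, 237 and 314 CPM (log2 fold change 0.52 ± 0.13, adjusted p = 0.0157). All 3 genes had every HF/HS liver above every chow liver, and ConvR chow 3 was the closest of the chow livers. Hadh, the short-chain hydroxyacyl-CoA dehydrogenase, was called higher (log2 fold change 0.53 ± 0.14, adjusted p = 0.0182), although ConvR HF/HS 3 did not exceed ConvR chow 3. Acadvl, the very-long-chain dehydrogenase (0.02), Acads, the short-chain one (0.26), and Acaa2 (0.19) had log2 fold changes that were not called. In electron transfer, the quinone oxidoreductase Etfdh was called higher (0.32 ± 0.08, adjusted p = 0.0211), and the flavoprotein subunits Etfa (0.29) and Etfb (-0.19) were not called.

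Hadha and Hadhb encode the α and β subunits of the mitochondrial trifunctional protein, which work as 1 complex. Hadha stood at 381, 383 and 366 CPM against 257, 272 and 318 CPM (log2 fold change 0.42 ± 0.10, adjusted p = 0.0128), and Hadhb at 260.1, 264 and 247 CPM against 172, 171 and 227 CPM (log2 fold change 0.44 ± 0.11, adjusted p = 0.0182). Neither gene's ranges overlapped. Neither gene was called in another comparison. Their log2 fold changes were -0.29 and -0.25 for ConvR against GF mice on chow, 0.31 and 0.20 for ConvD against ConvR mice, 0.02 and -0.05 for ConvD against GF mice, 0.12 and 0.16 for ConvR against GF mice on HF/HS and 0.01 and 0.02 for diet in GF mice. The genes lie head to head on chromosome 5 (RefSeq, GRCm38.p6, which is not the build the reads were aligned to), with start sites at 30154980 and 30155253, 273 bases apart. The middle 228 bases between them, chr5:30155003-30155230, lie upstream of both genes and are printed, on the strand of Hadhb and without capitals, to show the upstream sequence that the 2 genes have in common.
Hadhb and Hadha: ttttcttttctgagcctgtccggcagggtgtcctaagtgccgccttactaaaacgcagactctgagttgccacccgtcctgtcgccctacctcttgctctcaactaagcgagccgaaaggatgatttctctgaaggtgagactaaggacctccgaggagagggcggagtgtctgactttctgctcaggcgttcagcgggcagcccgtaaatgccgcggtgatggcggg

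A peroxisome proliferator response element is a direct repeat of the hexamer AGGTCA with 1 base between the copies. It was searched as AGGTCA, any 1 base and AGGTCA again, with up to 2 mismatches over its 12 fixed letters, on both strands, in RefSeq windows of 300 bases around start sites (GRCm38.p6). Of the members, 27 of 32 had a window, and 3 of their 31 windows held a match (9.68%), against 1268 of 32851 windows of all genes (3.86%). The half-site AGGTCA, which a full match without mismatches would contain, was in 4 of the 31 windows (12.9%) and in 16.3% of all windows. The matches lay in windows of Creb3l3, Slc25a20 and Etfa, and those of the first 2 are printed, with the match in capitals, since these genes sit at the regulator and the carnitine entry of the pathway. Creb3l3 is given at chr10:81092592-81092841 on the minus strand and Slc25a20 at chr9:108662137-108662159 on the plus strand. A match in these letters is a description of the sequence, and whether PPARα binds there was not measured. Slc25a20 was called higher on HF/HS in ConvR mice and Creb3l3 was not.
Creb3l3: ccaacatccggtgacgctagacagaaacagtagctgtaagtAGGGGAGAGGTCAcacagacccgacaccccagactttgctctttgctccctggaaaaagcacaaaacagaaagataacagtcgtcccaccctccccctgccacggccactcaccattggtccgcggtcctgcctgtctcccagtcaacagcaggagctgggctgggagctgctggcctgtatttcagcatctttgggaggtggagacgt
Slc25a20: aatgtAGGTGAAAGGTCGgcgga

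Among the peroxisomal members 4 of 7 were called higher in ConvR HF/HS than in ConvR chow livers. Ehhadh stood at 551, 556 and 376 CPM against 205, 168 and 363 CPM (log2 fold change 1.01 ± 0.24, adjusted p = 0.0125), with no overlap. Acaa1b stood at 1889, 1827 and 1303 CPM against 488, 466 and 1414 CPM (log2 fold change 1.08 ± 0.33, adjusted p = 0.0422), and here ConvR chow 3 lay above ConvR HF/HS 3. Hsd17b4, the second bifunctional enzyme (0.44 ± 0.13, adjusted p = 0.0325), and Decr2, the peroxisomal dienoyl-CoA reductase (0.41 ± 0.13, adjusted p = 0.0426), had smaller log2 fold changes. The ABC transporter Abcd3, which brings acyl-CoA into peroxisomes (0.42, adjusted p = 0.106), and Pex11a, which promotes their division (0.50, adjusted p = 0.107), were not called. Acaa1a, the second thiolase gene, pointed the other way without a call (-0.24, adjusted p = 0.277).

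Acaa1a and Acaa1b are near-identical, so reads could be split wrongly between them and their values are uncertain. Their coding sequences of 1275 bases each are identical at 1231 positions (96.55%) in GENCODE transcripts of GRCm38, and 35.5% of the 50-base words of the Acaa1b transcript also occur in Acaa1a. The stretch from coding position 457 to 536, counted from the first base of the start codon, holds 12 of the differences, in capitals, and is printed to show how reads can tell the genes apart.
Acaa1a: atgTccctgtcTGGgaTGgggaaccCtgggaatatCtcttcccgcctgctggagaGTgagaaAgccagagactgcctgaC
Acaa1b: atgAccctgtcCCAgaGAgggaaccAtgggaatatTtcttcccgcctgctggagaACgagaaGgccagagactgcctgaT

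Aldh3a2 stood at 875, 857 and 628 CPM on HF/HS and 224, 203 and 478 CPM on chow in ConvR mice (log2 fold change 1.38 ± 0.25, adjusted p = 0.00272). Acad11, an acyl-CoA dehydrogenase, stood at 493, 481 and 436 CPM against 330.0, 307 and 386 CPM (log2 fold change 0.46 ± 0.10, adjusted p = 0.00647). Bdh1, the dehydrogenase that makes β-hydroxybutyrate from acetoacetate, stood at 315, 336 and 262 CPM against 138, 111 and 206 CPM (log2 fold change 1.01 ± 0.17, adjusted p = 0.00217). In each of these genes the lowest HF/HS liver was above the highest chow liver. Vnn1, a pantetheinase and a known PPARα target, had the largest log2 fold change of the members in this comparison, at 145, 203 and 119 CPM against 27.2, 21.3 and 54.8 CPM (2.17 ± 0.29, adjusted p = 0.000424). Pdk4 stood at 17.6, 26.2 and 12.0 CPM against 4.62, 3.86 and 8.87 CPM (log2 fold change 1.68 ± 0.42, adjusted p = 0.0165), and Ucp2 was not called (0.23, adjusted p = 0.434). Vnn1 and Pdk4 had no overlap between diets.

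The number of called members depended on which ConvR livers entered. Without ConvR chow 1 and 2, only Cpt1a and Vnn1 (log2 fold change 1.50, adjusted p = 0.0211) were called, while 344 of 12773 genes were, or 2.69%, and the members' median was 0.25. In that fit Ppara was at 0.77 (adjusted p = 0.0816), Aldh3a2 at 0.72 (adjusted p = 0.0587), Bdh1 at 0.56 (adjusted p = 0.0668) and Ehhadh at 0.44 (adjusted p = 0.326). The count was 9, 10 and 26 without ConvR chow 1, 2 and 3 in turn, where 8.93%, 8.4% and 17.1% of all genes were called, and 13, 11 and 20 without ConvR HF/HS 1, 2 and 3, where 9.77%, 7.87% and 12.3% were.

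**Figure D3:**
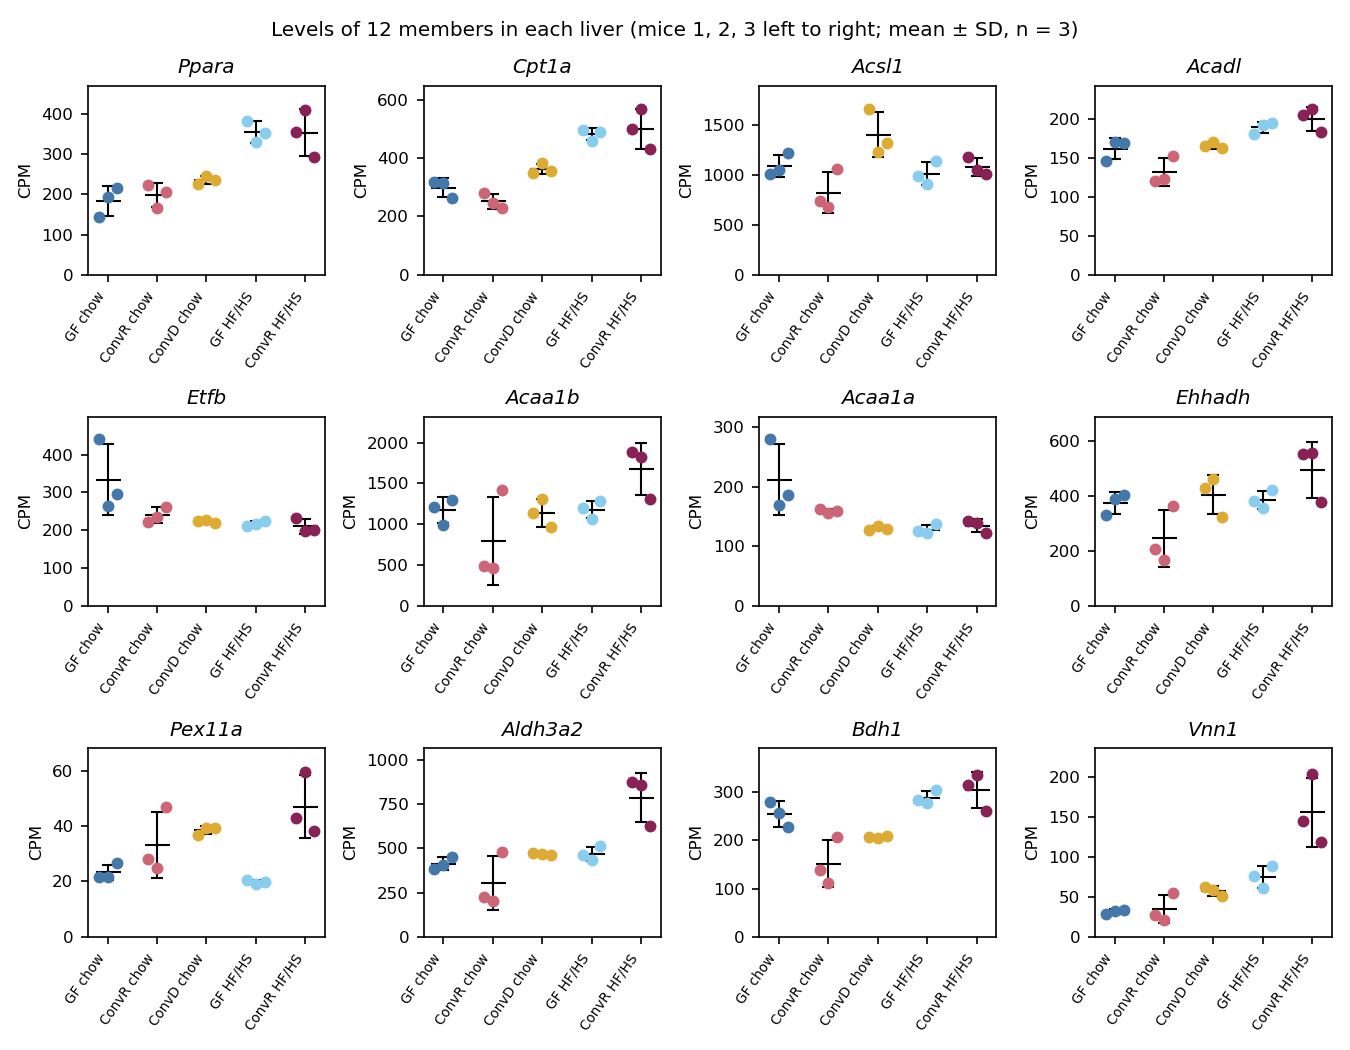
CPM of 12 members in each liver (points, mice 1, 2 and 3 from left to right in each group) with the group mean and SD (bars, n = 3 mice), on linear axes from 0. Ppara and Cpt1a are higher in both HF/HS groups than in the chow groups, and Pex11a has its lowest means in the GF groups.

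The same diets were compared in GF mice to find members that differed with diet without a microbiota. Ppara, Cpt1a and Vnn1 were higher on HF/HS, 3 of 32 members, and Acaa1a and Etfb were lower, 2 of 32, where 9.55% of all tested genes were called, 4.1% higher and 5.45% lower. Ppara stood at 383, 330.3 and 353 CPM on HF/HS and 144, 195 and 216 CPM on chow (log2 fold change 0.94 ± 0.16, adjusted p = 0.00481). Cpt1a stood at 497, 459.8 and 490.0 CPM against 319.6, 315 and 263 CPM (log2 fold change 0.69 ± 0.12, adjusted p = 0.00512). Vnn1 stood at 76.3, 60.8 and 88.4 CPM against 28.0, 31.8 and 33.9 CPM (log2 fold change 1.26 ± 0.28, adjusted p = 0.0164). Every HF/HS liver was above every chow liver for these 3 genes, which were also called higher in ConvR mice. The calls of Ppara and Cpt1a held without any 1 of the 6 GF livers, and that of Vnn1 was lost without GF HF/HS 1 (1.25, adjusted p = 0.0525) or 3 (1.13, adjusted p = 0.0660).

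Acaa1a stood at 125, 121 and 137 CPM in GF HF/HS and 279.5, 169 and 186 CPM in GF chow livers (log2 fold change -0.72 ± 0.14, adjusted p = 0.0102). Etfb stood at 211, 216 and 225 CPM against 441, 264 and 297 CPM (log2 fold change -0.62 ± 0.15, adjusted p = 0.0229). GF chow 1 was the highest of the 15 livers for both genes, and the ranges did not overlap. GF chow 1 also had a sum of 10 fasting-induced genes of 11321 CPM, against 1518 to 6821 CPM in the other 14 livers. The lowest of these was ConvR chow 3. The part of the high sum of GF chow 1 in the result was not tested. Without GF chow 1 the log2 fold changes were -0.46 (Acaa1a, adjusted p = 0.0114) and -0.36 (Etfb, adjusted p = 0.0464). With the compared groups alone neither was called (Acaa1a -0.72, adjusted p = 0.0823, and Etfb -0.61, adjusted p = 0.110). The Etfb call was lost without GF HF/HS 1, 2 or 3 (-0.60 to -0.64, adjusted p = 0.0689 to 0.0823), on log2(TPM + 1) (-0.53, adjusted p = 0.0786) and when each library's trend of expression on gene length was removed (-0.39, adjusted p = 0.0847), a trend whose rank correlation lay between -0.451 and 0.058 in ConvR and GF mice on chow and between 0.104 and 0.380 in the 9 remaining livers.

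The other 27 members were not called between the diets in GF mice. Crat stood at 59.2, 47.6 and 59.9 CPM against 31.1, 33.6 and 48.2 CPM (log2 fold change 0.56 ± 0.21, adjusted p = 0.102), and its ranges overlapped. Ehhadh (0.05, adjusted p = 0.924), Acaa1b (0.01, adjusted p = 0.989), Aldh3a2 (0.18, adjusted p = 0.679) and Pdk4 (0.27, adjusted p = 0.713), each called in ConvR mice, had log2 fold changes that were not called here. The median over the members was 0.03. Leaving out 1 library gave 3 to 6 calls, with the 3 without GF HF/HS 1 or GF HF/HS 3. In those fits 2.40% to 11.0% of all genes were called.

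Whether diet differed in its effect between ConvR and GF mice was tested by the interaction, the log2 fold change of HF/HS over chow in ConvR mice minus that in GF mice. No member was called, and 0% of the 12377 genes were (0 genes by edgeR, 150 by DESeq2's Wald test, of which 6 were members). At an unadjusted p below 0.05 there were 19 of 32 members and 1573 of all genes, or 12.7%. The interaction was above 0 for 31 of 32 members, with a median of 0.42, and for 6165 of the 12377 genes. The smallest p among members was for Decr1 (0.66 ± 0.17, adjusted p = 0.205), followed by Cpt2 (0.47 ± 0.13, adjusted p = 0.215) and Aldh3a2 (1.20 ± 0.35, adjusted p = 0.218). Bdh1 (0.82), Hsd17b4 (0.60), Acadm (0.59), Ehhadh (0.96), Pdk4 (1.42) and Cpt1a (0.30) had positive interactions without a call, and that of Ppara was -0.11 ± 0.22 (adjusted p = 0.859). Without ConvR chow 1 and 2 the members' median fell to 0.24 and no member was called. Without ConvR chow 3 there were 17 member calls, among 436 of 12556 genes (3.47%).

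The comparison of ConvR with GF mice on chow asked which members differed with a microbiota present from birth. Bdh1 was lower and Ucp2 higher, 2 of 32 members where 4.72% of all tested genes were called, 2.55% higher and 2.17% lower. Most other members pointed down without a call: 27 of 32 log2 fold changes were below 0, with a median of -0.26, against 6254 of 12377 genes and a median of -0.00. At an unadjusted p below 0.05 there were 18 members, where 23.4% of all genes were. Bdh1 stood at 138, 111 and 206 CPM in ConvR chow and 280.3, 257 and 227 CPM in GF chow livers (log2 fold change -0.75 ± 0.17, adjusted p = 0.0316). Ucp2 stood at 30.0, 36.6 and 26.8 CPM against 14.1, 15.8 and 23.4 CPM (log2 fold change 0.80 ± 0.19, adjusted p = 0.0337). Neither gene's ranges overlapped. Ucp2 is expressed by macrophages as well as other cells, and summed Kupffer cell markers stood at 491, 603 and 534 CPM in ConvR chow and 500.4, 379 and 415 CPM in GF chow livers. The part of these cells in the result was not tested.

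The members nearest to a call were Decr1 (-0.40 ± 0.12, adjusted p = 0.0727), Acads (-0.37 ± 0.12, adjusted p = 0.0769), Etfb (-0.48 ± 0.15, adjusted p = 0.0775) and Etfa (-0.39 ± 0.12, adjusted p = 0.0795). Etfa stood at 225, 215 and 323 CPM against 334, 325 and 343 CPM, with ConvR chow 3 just below the GF livers and mice 1 and 2 far below. Ppara (0.11, adjusted p = 0.717), Cpt1a (-0.25, adjusted p = 0.219), Ehhadh (-0.61, adjusted p = 0.147) and Pdk4 (-1.26, adjusted p = 0.0964) were not called. Pdk4 had 1 GF liver far above the other 2, at 8.05, 8.74 and 24.2 CPM. Without ConvR chow 1 and 2, Bdh1 was at -0.31 (adjusted p = 0.580) and Ucp2 at 0.58 (adjusted p = 0.556), no member was called, 12 of 12773 genes were, and the members' median was -0.05. No member was called without ConvR chow 1, ConvR chow 2 or GF chow 1 alone either, where 0.440%, 0.367% and 2.35% of all genes were. With ConvR chow 3 left out 17 members were called, Bdh1 and Ucp2 among them, where 1655 of 12556 genes were (13.2%). Without GF chow 2 neither Bdh1 (-0.74, adjusted p = 0.0517) nor Ucp2 (0.72, adjusted p = 0.0703) was called, although 2 other members were, among 4.26% of all genes.

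ConvD and GF mice on chow were compared to find members that differed 4 weeks after adult colonization. Acaa1a and Etfb were lower in ConvD livers and no member was higher, where 5.59% of all tested genes were called, 2.25% higher and 3.34% lower. Acaa1a stood at 128, 134 and 128 CPM in ConvD and 279.5, 169 and 186 CPM in GF chow livers (log2 fold change -0.70 ± 0.14, adjusted p = 0.0188). Etfb stood at 224, 227 and 219 CPM against 441, 264 and 297 CPM (log2 fold change -0.58 ± 0.15, adjusted p = 0.0391). The ConvD livers were close together and below all 3 GF livers in both genes. Without GF chow 1 Acaa1a was at -0.44 (adjusted p = 0.0223) and Etfb at -0.32 (adjusted p = 0.0878), and with the length trend removed Etfb was at -0.36 (adjusted p = 0.130). The Acaa1a call was also lost on log2(TPM + 1) (-0.53, adjusted p = 0.0659) and with the compared groups alone (-0.70, adjusted p = 0.129). That of Etfb was also lost on log2(TPM + 1) (-0.41, adjusted p = 0.139), without normalization factors (-0.53, adjusted p = 0.0620) and with the compared groups alone (-0.58, adjusted p = 0.160). No member was called without ConvD chow 1, 2 or 3, where 0.629%, 1.01% and 1.05% of all genes were.

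Pex11a stood at 36.8, 39.4 and 39.2 CPM in ConvD and 21.7, 21.8 and 26.5 CPM in GF chow livers, with no overlap, and missed the threshold (log2 fold change 0.72 ± 0.20, adjusted p = 0.052). By DESeq2's Wald test it passed (adjusted p = 0.0143). Vnn1 (0.87 ± 0.28, adjusted p = 0.0791) and Slc25a20 (0.32 ± 0.11, adjusted p = 0.0983) were also above the GF livers without overlap and without a call. Pex11a, Vnn1 and Slc25a20 were named for their small p, so their lack of overlap is no further evidence. Ppara (0.35, adjusted p = 0.181), Cpt1a (0.28, adjusted p = 0.158), Ehhadh (0.11) and Pdk4 (0.17) were not called. The members' median log2 fold change was 0.07, with 21 of 32 above 0, and the median over all tested genes was -0.01.

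ConvD and ConvR mice on chow were compared to find members that differed between adult and lifelong colonization. Acsl1 and Cpt1a were higher in ConvD livers and no member was lower, where 5.5% of all tested genes were called, 2.2% higher and 3.3% lower. Acsl1 stood at 1667, 1237 and 1324 CPM in ConvD and 739, 678 and 1061 CPM in ConvR livers (log2 fold change 0.77 ± 0.17, adjusted p = 0.0244). Cpt1a stood at 349, 382 and 356 CPM against 279, 248 and 229.7 CPM (log2 fold change 0.52 ± 0.12, adjusted p = 0.0244). Both genes had every ConvD liver above every ConvR liver. ConvR chow 3 was the lowest of the 3 ConvR livers for Cpt1a and the highest for Acsl1. The log2 fold change was above 0 for 29 of 32 members, with a median of 0.32, against -0.01 over all tested genes. Acad11 (0.35 ± 0.10, adjusted p = 0.0514), Cpt2 (0.32 ± 0.09, adjusted p = 0.0579), Decr1 (0.42 ± 0.12, adjusted p = 0.0606) and Pdk4 (1.43 ± 0.42, adjusted p = 0.0617) followed without a call, as did Ehhadh (0.72, adjusted p = 0.0899) and Ppara (0.25, adjusted p = 0.354).

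Without ConvR chow 1 and 2, Cpt1a was at 0.66 (adjusted p = 0.231) and Acsl1 at 0.41 (adjusted p = 0.507) in the comparison of ConvD with ConvR mice, no member was called and the members' median was 0.07. Leaving out ConvR chow 2, ConvD chow 1 or ConvD chow 2 also left 0 calls, where 0.431%, 0.478% and 0.12% of all genes were called. Leaving out ConvR chow 1 or ConvD chow 3 left 1, where 0.847% and 2.19% were. Leaving out ConvR chow 3 gave 21, among 1611 of 12556 genes (12.8%). The 3 comparisons on chow share their livers, since each group enters 2 of them.

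**Figure D4:**
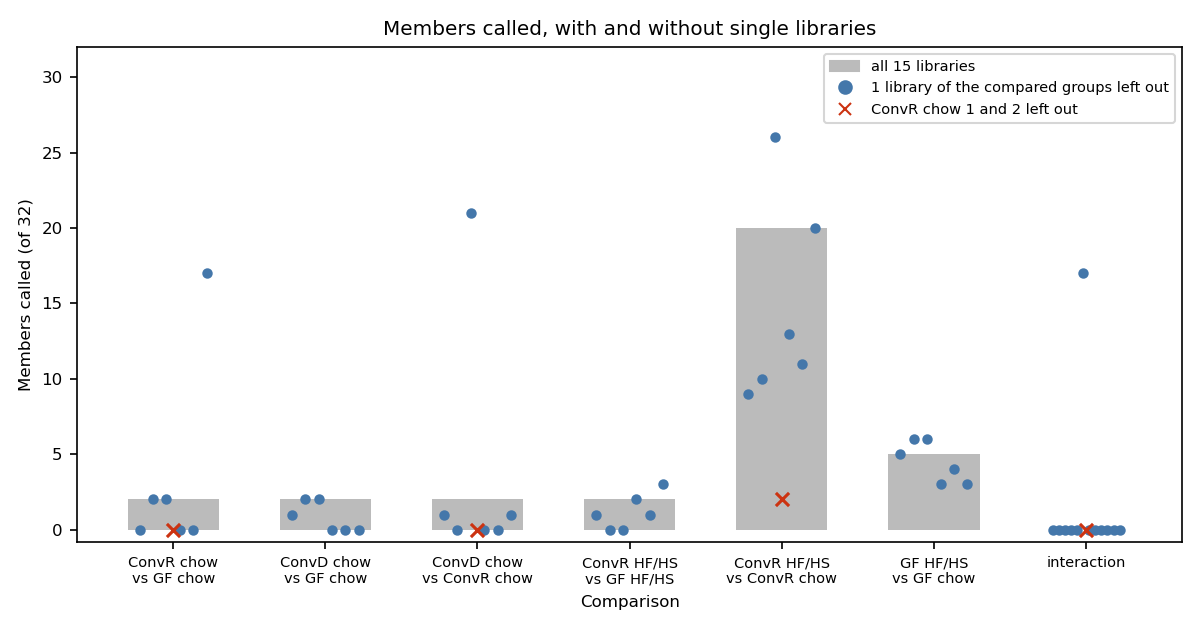
Number of the 32 members called in each of the 7 comparisons (vertical axis) with all 15 libraries (grey bars), with 1 library of the compared groups left out at a time (blue points) and without ConvR chow 1 and 2 (red crosses). With ConvR chow 3 left out the counts are 17, 21, 26 and 17 in the comparisons that use the ConvR chow group, and without mice 1 and 2 they are 0, 0, 2 and 0.

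On HF/HS, the comparison of ConvR with GF mice asked which members differed with the microbiota on that diet, and the ConvR chow livers do not enter this comparison. Pex11a and Ucp2 were higher in ConvR livers and no member was lower, where 1.62% of all tested genes were called, 0.881% higher and 0.735% lower. Pex11a stood at 43.1, 59.8 and 38.3 CPM in ConvR HF/HS and 20.4, 19.2 and 19.6 CPM in GF HF/HS livers (log2 fold change 1.25 ± 0.20, adjusted p = 0.00866). Ucp2 stood at 31.7, 46.5 and 31.4 CPM against 20.8, 19.5 and 18.6 CPM (log2 fold change 0.89 ± 0.19, adjusted p = 0.0305). Every ConvR liver exceeded every GF liver in both genes, and ConvR HF/HS 2 was the highest of the 15 livers for Pex11a and for Ucp2. That liver also had the highest sum of adipocyte markers, 13.2 CPM against 0.0603 to 3.72 CPM in the others. Of the 6 adipocyte markers 5 stayed under 1 CPM in all 15 livers, so this high sum came mostly from a single gene. Summed hepatocyte markers did not overlap either, at 102788 to 105283 CPM in ConvR HF/HS and 138359 to 145043 CPM in GF HF/HS livers. The part of these in the result was not tested.

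Without ConvR HF/HS 2, Pex11a was at 1.05 (adjusted p = 0.0313) and Ucp2 at 0.69 (adjusted p = 0.120). The Pex11a call was lost without GF HF/HS 2 (1.23, adjusted p = 0.0657) or GF HF/HS 3 (1.24, adjusted p = 0.0501), and that of Ucp2 without GF HF/HS 1, 2 or 3 (0.86 to 0.94, adjusted p = 0.0842 to 0.150). Vnn1 (1.05 ± 0.27, adjusted p = 0.0731), Slc25a20 (0.41 ± 0.11, adjusted p = 0.0849), Crat (0.69 ± 0.20, adjusted p = 0.107) and Aldh3a2 (0.74 ± 0.25, adjusted p = 0.144) were the next by p and were not called. In each of these 4 genes the ConvR livers were above the GF livers without overlap, which describes 3 against 3 mice and is not a test. The genes were named for their small p, so their lack of overlap is no further evidence. Ppara (-0.01, adjusted p = 0.994), Cpt1a (0.06, adjusted p = 0.871), Ehhadh (0.36, adjusted p = 0.523) and Pdk4 (0.16, adjusted p = 0.899) were not called. The members' median was 0.16, with 27 of 32 above 0, and the median over all tested genes was -0.01.

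Mitochondrial and peroxisomal members were set side by side in each comparison. The mitochondrial list held 15 genes and the peroxisomal list 7, and Acsl1, Crat, Acad11 and Aldh3a2, whose products are known from more than 1 compartment, were in neither. In HF/HS against chow in ConvR mice, 9 of 15 mitochondrial and 4 of 7 peroxisomal members were called higher, with median log2 fold changes of 0.42 and 0.44. The spread was wider among the peroxisomal genes, from -0.24 for Acaa1a to 1.08 for Acaa1b, than among the mitochondrial ones, from -0.19 for Etfb to 0.99 for Cpt1a, though with fewer genes. The medians were -0.29 and -0.22 for ConvR against GF mice on chow, 0.01 and 0.08 for ConvD against GF mice, 0.31 and 0.30 for ConvD against ConvR mice, and 0.01 and 0.01 for the diets in GF mice. With all 15 libraries these pairs differed by less than 0.12. This is the pooled within-group SD, over single livers, of the difference between the mean log2 CPM of the lists. It serves as a rough scale only and is not the standard error of a difference between these medians. The medians lay further apart for ConvR against GF mice on HF/HS, at 0.12 and 0.36, and for the interaction, at 0.41 and 0.60. With libraries left out, the peroxisomal minus the mitochondrial median passed 0.12 in ConvR against GF mice on chow without ConvR chow 1 and 2 (0.160), in ConvD against GF mice without GF chow 2 (0.153), and without ConvR chow 3 in ConvD against ConvR mice (0.137) and for diet in ConvR mice (0.142). Its sign changed with 1 library or another left out in ConvR against GF and ConvD against ConvR mice on chow and for both diet comparisons. On HF/HS it was 0.156 without ConvR HF/HS 2, and in the interaction 0.0685 without GF chow 1 and 0.0273 without ConvR chow 1 and 2. No p is given for these differences, since the lists were chosen with results of these data known.

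The medians themselves lay nearer 0 without ConvR chow 1 and 2. For diet in ConvR mice the mitochondrial and peroxisomal medians were then 0.18 and 0.19, and for the interaction 0.22 and 0.25. For ConvR against GF mice on chow they were -0.09 and 0.07, and for ConvD against ConvR mice 0.05 and -0.01.

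**Figure D5:**
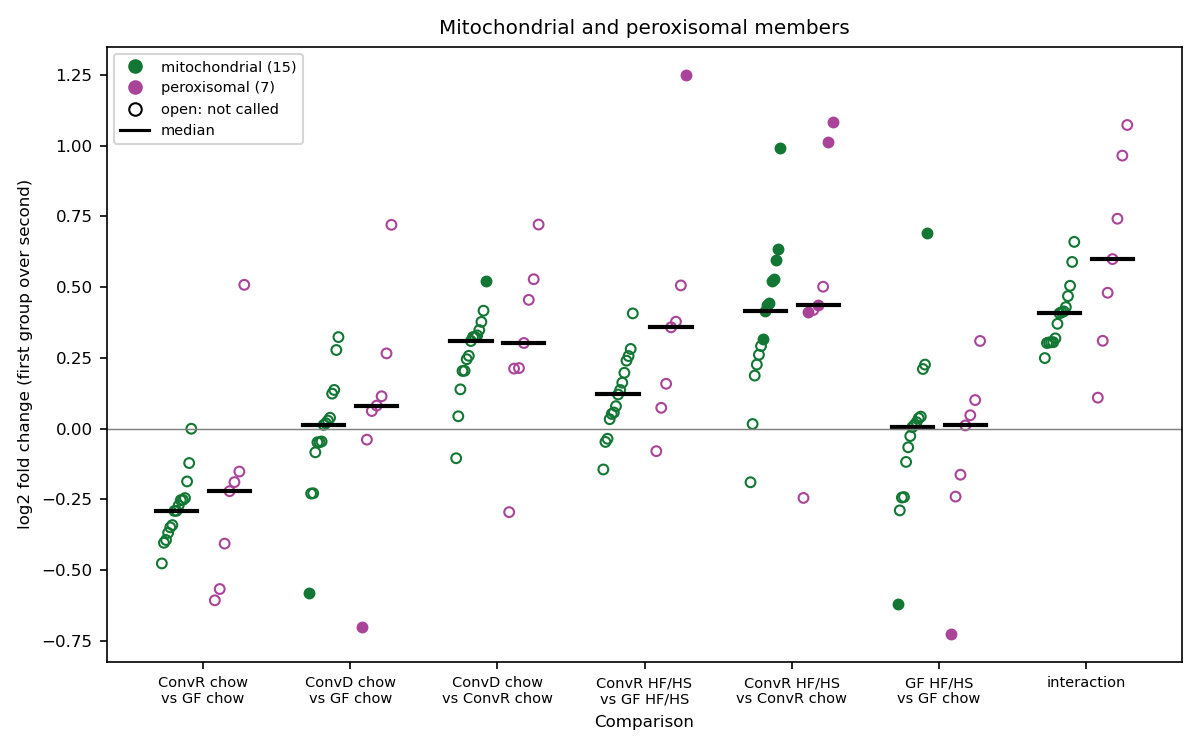
Log2 fold change of each mitochondrial (green) and peroxisomal (purple) member in each of the 7 comparisons, first group over second, with filled points for called genes and bars for the medians. With all 15 libraries the medians differ by less than 0.12 in 5 comparisons and by 0.24 and 0.19 in ConvR against GF mice on HF/HS and in the interaction.

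Each liver was given a score for each list. It was the median, over the list's genes, of log2 CPM relative to the gene's mean over all libraries. The scores showed the same lows. The mitochondrial score was -0.37 and -0.38 in ConvR chow 1 and 2, -0.02 in ConvR chow 3 and from -0.03 to 0.21 in the other 12 libraries. The peroxisomal score was -0.31 and -0.42 in ConvR chow 1 and 2, 0.08 in ConvR chow 3 and from -0.13 to 0.37 in the other 12. Both lists were thus lowest in the same pair of livers, and highest in ConvR HF/HS 1. Among the peroxisomal genes, Pex11a had its lowest group means in GF HF/HS at 19.8 ± 0.621 CPM (SD, n = 3) and GF chow at 23.3 ± 2.76 CPM. Of the groups with a microbiota, ConvR chow stood at 33.2 ± 11.9, ConvD chow at 38.5 ± 1.43 and ConvR HF/HS at 47.0 ± 11.3 CPM, values that overlap each other. The ConvR chow range of 24.8 to 46.8 CPM also overlapped the GF chow range of 21.7 to 26.5 CPM, and Pex11a was not called between those groups. Acaa1a had another order, with GF chow highest at 211 ± 59.6 CPM, then ConvR chow at 159 ± 3.21, and ConvR HF/HS at 135 ± 11.0, ConvD chow at 129.9 ± 3.22 and GF HF/HS at 128 ± 8.32 CPM close together. ConvR HF/HS had the highest mean of the 5 groups for 21 of 32 members (20.4% of all tested genes), and ConvR chow the lowest for 22 (21.9%).

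Of 69 further genes of the same pathways, 67 could be tested. On HF/HS 11 were higher and 3 lower in ConvR mice, where 14.6% of all tested genes were called, and 4 were higher and 5 lower in GF mice, where 9.55% were. Acsm1, a medium-chain acyl-CoA synthetase, was lower on HF/HS in ConvR (-0.56 ± 0.08, adjusted p = 0.000852) and GF mice (-0.39 ± 0.08, adjusted p = 0.0118). Mpv17l, a peroxisomal membrane protein, was lower in both as well (-0.86 ± 0.13 and -0.60 ± 0.13, adjusted p = 0.00134 and 0.0169), and Nudt7, which hydrolyses CoA in peroxisomes, was lower in ConvR mice (-0.87 ± 0.20, adjusted p = 0.0102). Acacb, whose product malonyl-CoA inhibits CPT1A, was higher on HF/HS in GF mice at 189, 181 and 135 against 36.5, 31.7 and 50.8 CPM (2.09 ± 0.28, adjusted p = 0.00167), as was the corepressor Ncor1 (0.33 ± 0.08, adjusted p = 0.0208). Of the 67 genes 1 was called higher and 4 lower on HF/HS in ConvR mice without ConvR chow 1 and 2, the latter Acsm1, Acsm5, Mpv17l and Nudt7 (-0.56 to -1.17, adjusted p = 0.00745 to 0.0336).

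In the colonization comparisons 4.72%, 5.59%, 5.5% and 1.62% of all tested genes were called, in the order given here. Of the 67 genes, ConvR chow livers had 0 higher and 5 lower than GF chow livers, among them Acad10 (-0.87 ± 0.14, adjusted p = 0.00939), Pccb, a subunit of propionyl-CoA carboxylase (-0.49 ± 0.09, adjusted p = 0.0147), the enoyl-CoA hydratase Echs1 (-0.43 ± 0.10, adjusted p = 0.0311) and methylmalonyl-CoA mutase, Mut (-0.39 ± 0.10, adjusted p = 0.0384). In ConvD against GF mice Slc22a5, the plasma membrane carnitine transporter (0.50 ± 0.13, adjusted p = 0.0462), and Ncor1 (0.31 ± 0.08, adjusted p = 0.0372) were higher and Echs1 lower (-0.39 ± 0.10, adjusted p = 0.0366). ConvD exceeded ConvR livers in 5 genes, including the carnitine octanoyltransferase Crot (0.52 ± 0.13, adjusted p = 0.034), catalase, Cat (0.67 ± 0.17, adjusted p = 0.0406), and Acad10 (0.52 ± 0.14, adjusted p = 0.0466). On HF/HS, Slc22a5 was the 1 gene called, at 24.5, 34.3 and 24.4 CPM in ConvR and 15.8, 15.1 and 19.3 CPM in GF livers (0.73 ± 0.14, adjusted p = 0.0175). The interaction called none of the 67 by edgeR, with 18 at an unadjusted p below 0.05. No gene of the 67 was called between ConvR and GF mice on chow or between ConvD and ConvR mice when ConvR chow 1 and 2 were left out.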

How the data were processed

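Liver RNA of 15 mice was made into libraries with a stranded mRNA kit, per the labels' protocols. Bowtie2, RSEM 1.2.23 and the mm9 build are named in the submitters' processing notes, and the annotation release is not given in the sources used here. The authors deposited 1 table a liver with an RSEM expected count (estimated count) and a TPM value for each of 20325 genes. TPM was used as deposited for levels between genes and as an alternative test scale, log2(TPM + 1).

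Expected counts were rounded and genes kept by edgeR's filterByExpr with a minimum count of 10 (12377 genes). TMM scaling and edgeR 4.0.16's quasi-likelihood F test (R 4.3.3) were fitted to 5 group means over all 15 libraries, with 10 residual degrees of freedom, so that the groups share 1 estimate of the spread, and p-values were adjusted by Benjamini-Hochberg over all tested genes in each of 7 comparisons. The standard error is the log2 fold change divided by the square root of F, and CPM uses the scaled library sizes. Library totals of 14737578 to 21794811 set the counting precision, and the spread between the 3 mice of a group enters each test. The script was tested on simulated counts.

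The members and lists were chosen with earlier results of these data known. Named genes follow a rule: in each comparison every called member, or the 12 smallest adjusted p where more were called, filled to 6 where fewer were, always with Ppara, Cpt1a, Ehhadh and Pdk4, and up to 4 called genes of the wider pathway, apart from any not reported here. Alternatives were DESeq2 size factors, no normalization factors, no filter, DESeq2 1.42.0's Wald test, limma-trend (3.58.1) on TPM, a replicate block, removal of each library's trend on gene length (lowess span 0.5), the compared groups alone, and leaving out libraries. Promoters are RefSeq's and transcripts GENCODE's, both of GRCm38, and no coordinates of the authors' build were used.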

Additional observations from a re-analysis of the deposited data

Results flagged for a closer look

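Cpt2, the inner membrane carnitine transferase, pointed opposite ways with diet in ConvR and GF mice, with no overlap between the diets in either, by a narrow margin in GF mice. It stood at 175, 155 and 154 CPM in ConvR HF/HS and 129, 135 and 149 CPM in ConvR chow livers, and at 126, 124 and 148 CPM in GF HF/HS and 155, 148 and 167 CPM in GF chow livers. The log2 fold change was 0.23 ± 0.09 (adjusted p = 0.122) in ConvR mice and -0.24 ± 0.09 (adjusted p = 0.117) in GF mice. The test of the difference itself, the interaction, gave 0.47 with an unadjusted p of 0.00331 and an adjusted p of 0.215 by edgeR, and did not pass. Without ConvR chow 1 and 2 the interaction was 0.35 (adjusted p = 0.684).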

How the results depend on the processing

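Over all alternatives run, no log2 fold change of a named member reversed sign while called. Of these members' values 899 stayed on their side of the threshold, 78 lost a call and 75 gained one. Named genes of the wider pathway were followed only in the fit without ConvR chow 1 and 2, not in the other alternatives. Counts of called members that moved by over 1.5 times were as follows, with the share of all tested genes called in brackets. For ConvR against GF mice on chow (2 members, 4.72%) DESeq2's Wald test gave 8 (8.4%), TPM 9 (7.57%) and the compared groups alone 0 (0%). Leaving out 1 library there gave 0 to 17 (0.367% to 13.2%). For ConvD against GF mice (2, 5.59%) no normalization factors gave 1 (5.03%), DESeq2 4 (9.4%), TPM 1 (7.37%) and the groups alone 0 (0.0921%). Leaving out 1 library there gave 0 to 2 (0.629% to 7.67%). For ConvD against ConvR mice (2, 5.5%) no normalization factors gave 8 (8.81%), DESeq2 9 (9.06%), TPM 26 (30.1%) and the groups alone 0 (0.701%). Leaving out 1 library there gave 0 to 21 (0.12% to 12.8%). For ConvR against GF mice on HF/HS (2, 1.62%) no normalization factors gave 7 (6.18%), DESeq2 6 (4.16%), TPM 8 (6.39%) and the groups alone 4 (3.76%). Leaving out 1 library there gave 0 to 3 (0.128% to 2.24%). For diet in ConvR mice (20, 14.6%) the groups alone gave 9 (6.93%) and leaving out 1 library 9 to 26 (7.87% to 17.1%). For diet in GF mice (5, 9.55%) the groups alone gave 3 (2.16%) and leaving out 1 library 3 to 6 (2.40% to 11.0%). For the interaction (0, 0%) DESeq2 gave 6 (1.21%), TPM 17 (9.63%) and leaving out 1 library 0 to 17 (0% to 3.47%). The cause of these moves was not tested, apart from the fewer libraries that the groups alone and the left-out libraries leave.

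The median of the peroxisomal minus that of the mitochondrial members ranged, with 1 library left out, from -0.0341 to 0.0761 in ConvR against GF mice on chow, from 0.0343 to 0.153 in ConvD against GF mice, from -0.0197 to 0.137 in ConvD against ConvR mice, from 0.156 to 0.320 in ConvR against GF mice on HF/HS, from -0.0366 to 0.142 for diet in ConvR mice, from -0.0962 to 0.0879 for diet in GF mice and from 0.0685 to 0.307 in the interaction. Without ConvR chow 1 and 2 it was 0.160 in ConvR against GF mice on chow, -0.0559 in ConvD against ConvR mice, 0.0120 for diet in ConvR mice and 0.0273 in the interaction. On TPM the all-gene median moved to 0.30 for diet in ConvR mice, 0.27 in the interaction, 0.21 in ConvD against ConvR mice, 0.16 in ConvR against GF mice on HF/HS and -0.10 on chow, and leaving out normalization factors moved it to 0.19 for diet in ConvR mice, 0.22 in the interaction and 0.16 in ConvR against GF mice on HF/HS, so the members' values on those scales are read against these shifts. The share of all called genes that were higher was 46.4% for diet in ConvR mice, 84.8% without normalization factors and 95.6% on TPM. The same 3 shares were 54.1%, 40.6% and 17.1% for ConvR against GF mice on chow, 40.2%, 63.7% and 88.5% for ConvD against GF mice, 39.9%, 73.5% and 94.6% for ConvD against ConvR mice, 54.5%, 93.5% and 93.8% for ConvR against GF mice on HF/HS, and 42.9%, 36.2% and 64.8% for diet in GF mice.

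Replicate numbers shared between groups name mice only: of 30 pairs of libraries with the same number, 2 had deviations from their group means that correlated over 0.1 (range -0.230 to 0.246). With the replicate block the counts of called members were 2, 1, 2, 2, 19, 5 and 0, in the order ConvR against GF, ConvD against GF and ConvD against ConvR mice on chow, ConvR against GF mice on HF/HS, diet in ConvR mice, diet in GF mice and the interaction. The shares of all tested genes called were 3.25%, 3.95%, 3.87%, 1.16%, 13.1%, 8.08% and 0% in that order. The block ended the call of Etfb in ConvD against GF mice (-0.56, adjusted p = 0.0545).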

Other observations

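A further 21 known PPARα targets, for lipid uptake, storage, oxidation and secreted signals, were measured outside the 32 genes, and some of them also belong to the 69 pathway genes. In ConvR mice 12 of 21 were higher on HF/HS and 0 lower, where 14.6% of all tested genes were called, with a median log2 fold change of 1.02. The hormone gene Fgf21 stood at 3.07, 8.36 and 3.28 CPM in ConvR HF/HS and 0.275, 0.241 and 0.302 CPM in ConvR chow livers (4.13 ± 0.56, adjusted p = 0.000529). Cidec, a lipid droplet protein, stood at 26.4, 69.5 and 9.01 CPM against 1.04, 0.723 and 3.56 CPM (4.30 ± 0.67, adjusted p = 0.00133), and Cd36, a fatty acid transporter, at 209.7, 295 and 122 CPM against 46.6, 32.1 and 56.1 CPM (2.22 ± 0.30, adjusted p = 0.000495). When ConvR chow 1 and 2 were left out, fewer of the 21 were called and the median was 0.71. Fgf21 was then at 3.98, Cd36 at 1.89 and Cidec at 3.29. In GF mice, where 9.55% of all tested genes were called, 2 of 21 were higher on HF/HS, Fgf21 (2.00 ± 0.50, adjusted p = 0.0247) and Cd36 (1.00 ± 0.29, adjusted p = 0.0451), with a median of 0.23. The interaction called none of the 21, with a median of 0.79. Between ConvR and GF mice on HF/HS, where 1.62% of all tested genes were called, 3 of the 21 were higher in ConvR livers. They were Cidec (4.26 ± 0.66, adjusted p = 0.00656), the lipid droplet protein Plin5 (0.88 ± 0.13, adjusted p = 0.00629) and the lipase Mgll (0.78 ± 0.14, adjusted p = 0.0148).

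Genes that follow feeding were also higher on HF/HS, 7 of 10 in ConvR mice with a median log2 fold change of 0.97 and 8 of 10 in GF mice with a median of 1.28. Of all tested genes 14.6% were called for diet in ConvR mice, 6.75% higher and 7.8% lower. For diet in GF mice 9.55% were called, 4.1% higher and 5.45% lower. Of 10 fasting-induced genes, 3 were lower and 0 higher in ConvR than in GF chow livers, with a median of -0.70, and on HF/HS 2 were higher in ConvR mice and 1 in GF mice. Between ConvR and GF chow livers 4.72% of all tested genes were called, 2.55% higher and 2.17% lower. Of the 22 acute phase genes, 21 were lower in ConvR HF/HS than in ConvR chow livers with a median of -2.51, and 18 were higher in ConvR than in GF chow livers with a median of 2.24. With ConvR chow 1 and 2 left out, the acute phase median was -0.47 for diet in ConvR mice and 0.06 for ConvR against GF chow livers. Some genes of that list still differed in this fit, where ConvR chow 3 was the only ConvR chow liver left. The feeding and fasting medians for diet in ConvR mice were then 0.91 and 1.80. For ConvR against GF chow livers the fasting median was then -1.59. Fewer feeding and fasting genes were called in these comparisons than with all 15 libraries. ConvR chow 3 had the lowest fasting sum of the 15 livers, 1518 CPM, and GF chow 1 the highest, 11321 CPM.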
